A study of Homo sapiens with 39 samples.

Results

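Isoform 9 of hepatocyte nuclear factor 4 alpha (HNF4A) was compared directly with isoform 7 in HCT116 cells, an established human colorectal cancer line. The members were the 6 libraries of these 2 lines, out of 39 libraries of the series, and the remaining lines and the parental cells served as reference. By the standard nomenclature, which the sample labels do not spell out, both isoforms are transcribed from the P2 promoter of HNF4A and share their N-terminus. They differ at the C-terminus, which is short in isoform 9 and long in isoform 7. The comparison therefore asks which transcripts differ between a line with the short and a line with the long C-terminus, with the N-terminus kept.

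HNF4A is an orphan nuclear receptor that binds DNA as a homodimer and is known as a regulator of lipid, bile acid, amino acid and drug metabolism in liver and gut. Transcripts of the P2 promoter lack the N-terminal activation function AF-1, so the C-terminal part of the protein carries the remaining activation function AF-2. The F domain follows AF-2 at the C-terminus and is known to modulate its contact with coregulators; it is the region that the splice forms with a short C-terminus change.

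The isoform 7 line carried HNF4alpha7-GFP and the isoform 9 line HNF4alpha9-GFP, in Flp-In T-REx HCT116 host cells, and each isoform was represented by 1 line with 3 libraries. Differences due to the isoform and differences due to the line therefore cannot be told apart. Both lines had been kept in blasticidin and hygromycin B. The parental host cells had no HNF4A construct and had been kept in blasticidin and zeocin. Doxycycline at 2.5 µg/ml was given for 48 h to all cells, the parental cells included, and selection drugs were taken out at induction. No line with GFP alone was among the groups, so differences from the parental cells contain GFP, the integrated construct and the drug history. The labels do not say whether the 3 libraries of a line came from separate cultures, so the p-values measure only the spread between these libraries, which may be technical. With 3 libraries against 3, an exact permutation test of a single value cannot go below p = 0.1.

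HNF4A itself was measured first. In the parental cells it stood at 31.5 TPM ± 0.589 (SD, n = 3), where TPM is a transcript level corrected for length and scaled to the same sum in every library. The isoform 7 libraries held 691.6, 752.1 and 754.0 TPM and the isoform 9 libraries 807.8, 973.9 and 1063 TPM. In each of these 6 libraries, the transcript row of the labelled isoform made up 99.6% to 99.8% of HNF4A. The ranges of the lines did not overlap, and the mean of isoform 9 was 1.29 times that of isoform 7 (log2 difference 0.36, two-sided exact permutation p = 0.1). A higher level of HNF4A thus went with isoform 9, and its part in the differences below was not tested. Between isoforms 12 and 10, a further pair of P2 forms with short and long C-terminus, the HNF4A levels overlapped, at 640.0 to 723.6 TPM against 626.8 to 712.7 TPM. Between isoforms 3 and 1 they also overlapped, at 406.9 to 833.5 TPM against 765.1 to 806.0 TPM. Between isoforms 6 and 4 they did not, at 1027 to 1109 TPM against 823.2 to 872.3 TPM.

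The epithelial identity of the line was visible in all 6 libraries. The 5 epithelial markers EPCAM, KRT8, KRT18, KRT19 and CDH1 were all detected, and their summed level was 4471 to 4636 TPM in isoform 7, 3046 to 3396 TPM in isoform 9 and 3044 to 3171 TPM in the parental cells. Most of the gap came from the keratins of simple epithelia. KRT8 was at 1918 TPM ± 28.8 in isoform 7 and 1264 TPM ± 78.3 in isoform 9 (SD, n = 3 each), a log2 difference of -0.60 ± 0.045 (SE, limma adjusted p = 3.48e-11). Its filament partner KRT18 fell by the same 0.60 on the log2 scale, and KRT19 by 0.46. EPCAM, an epithelial adhesion molecule, had overlapping levels of 595 TPM in each line. Of the 5 fibroblast markers, LUM was at 0 in all 6 libraries and COL1A2 and DCN were at 0.0392 TPM or less, but COL1A1 was at 10.1 and 8.91 TPM in isoforms 7 and 9 (parental 12.96 TPM), and the list summed to 8.69 to 12.7 TPM and 7.82 to 10.5 TPM. The 4 leukocyte markers summed to 1.10 TPM or less in every library of the 2 lines, with CD3E at 0 in isoform 7. The 3 endothelial markers summed to 3.67 to 4.25 TPM in isoform 7 and 1.99 to 2.47 TPM in isoform 9, nearly all of it PECAM1, an adhesion molecule, which fell by 0.69 (limma adjusted p = 7.69e-05). The 3 neuronal or neuroendocrine markers summed to 12.0 to 12.7 TPM and 17.2 to 19.9 TPM, nearly all of it ENO2, a glycolytic enolase, which rose by 0.54 (limma adjusted p = 3.1e-07) and was at 27.4 TPM in the parental cells. The part of these shifts in the results below was not tested. In bulk libraries, fewer cells of a type and less RNA per cell cannot be told apart.

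Across the 15002 genes whose average in all 39 libraries reached 1 TPM, the genes with large differences were mostly lower in isoform 9 than in isoform 7. Calls required an adjusted p under 0.05 (limma on log2(TPM + 1), Benjamini-Hochberg) together with an absolute log2 difference of at least 1. By this rule 63 genes were called, 0.42% of those tested: 51 were lower in isoform 9 (0.34%) and 12 higher (0.08%). In 62 of the 63, the 3 libraries of one line lay entirely above the 3 of the other, which held for 16.7% of all tested genes with isoform 9 on top and 7.03% with isoform 9 below. Protein-coding genes made up 46 of the 63. A log2 difference on this scale understates the ratio of genes near or below 1 TPM, so TPM values are given beside each.

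**Figure D1:**
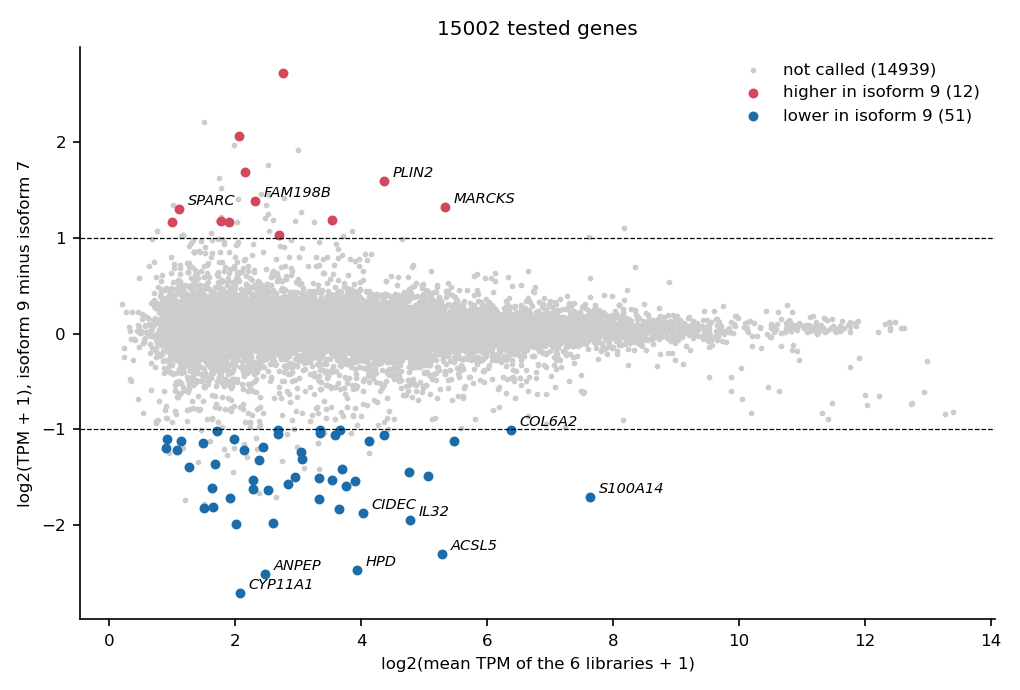
Difference between the lines (vertical axis, log2(TPM + 1), isoform 9 minus isoform 7) against the mean level of the 6 libraries (horizontal axis, log2(mean TPM + 1)) for 15002 tested genes. Dashed lines mark an absolute difference of 1; the 51 called lower genes (blue) outnumber the 12 called higher (red), and grey points past a dashed line missed the adjusted p of 0.05.

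Without the minimum size, 2317 genes passed the adjusted p (15.4%), 1614 of them higher in isoform 9 (10.8%) and 703 lower (4.69%). That balance depended on scaling and on the libraries in the fit. The median log2 difference of all tested genes was 0.058 with TPM as deposited and 0.0063 after median-of-ratios scaling, and the scaled values gave 1050 higher and 1141 lower. The excess of lower calls at the size threshold did not turn: scaling gave 10 higher and 58 lower.

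Several genes of fatty acid activation and lipid droplets differed between the lines, in both directions. ACSL5, an acyl-CoA synthetase that activates long-chain fatty acids (chr10:112374018-112428380, GRCh38, plus strand), was at 65.2, 60.6 and 66.2 TPM in isoform 7 and at 11.2, 12.5 and 12.9 TPM in isoform 9. The lines were far apart, with a ratio of means of 5.26 and a log2 difference of -2.30 ± 0.11 (SE, limma adjusted p = 9.16e-16). The parental cells had 0.550 TPM, so ACSL5 was present well above parental levels in isoform 9 as well. CIDEC, a protein of the lipid droplet surface that promotes droplet fusion (chr3:9866711-9880254, minus strand), was at 23.0, 27.4 and 23.7 TPM in isoform 7 and at 5.53, 6.89 and 5.62 TPM in isoform 9. Its log2 difference was -1.87 ± 0.13 (limma adjusted p = 5.1e-12), against a parental level of 0.0745 TPM. AWAT1, an acyl-CoA wax alcohol acyltransferase, went from 5.49 TPM ± 0.608 to 0.630 TPM ± 0.172, a log2 difference of -1.995 ± 0.11, and had 0.0189 TPM in the parental cells.

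PLIN2, the perilipin that coats lipid droplets in most cells (chr9:19108375-19149290, minus strand), moved the other way. It was at 10.5, 9.85 and 7.69 TPM in isoform 7 and at 29.5, 30.8 and 29.4 TPM in isoform 9, a log2 difference of 1.59 ± 0.065 (SE, limma adjusted p = 2.09e-17). The isoform 7 line was the unusual one: the means of the other 12 groups, the parental cells and isoform 9 included, lay between 29.9 and 37.5 TPM, and the lowest of their libraries had 29.4 TPM. In the authors' deposited tables, PLIN2 had a log2 fold change against the parental cells of -1.58 for isoform 7 and -0.058 for isoform 9; both use the same parental libraries.

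**Figure D2:**
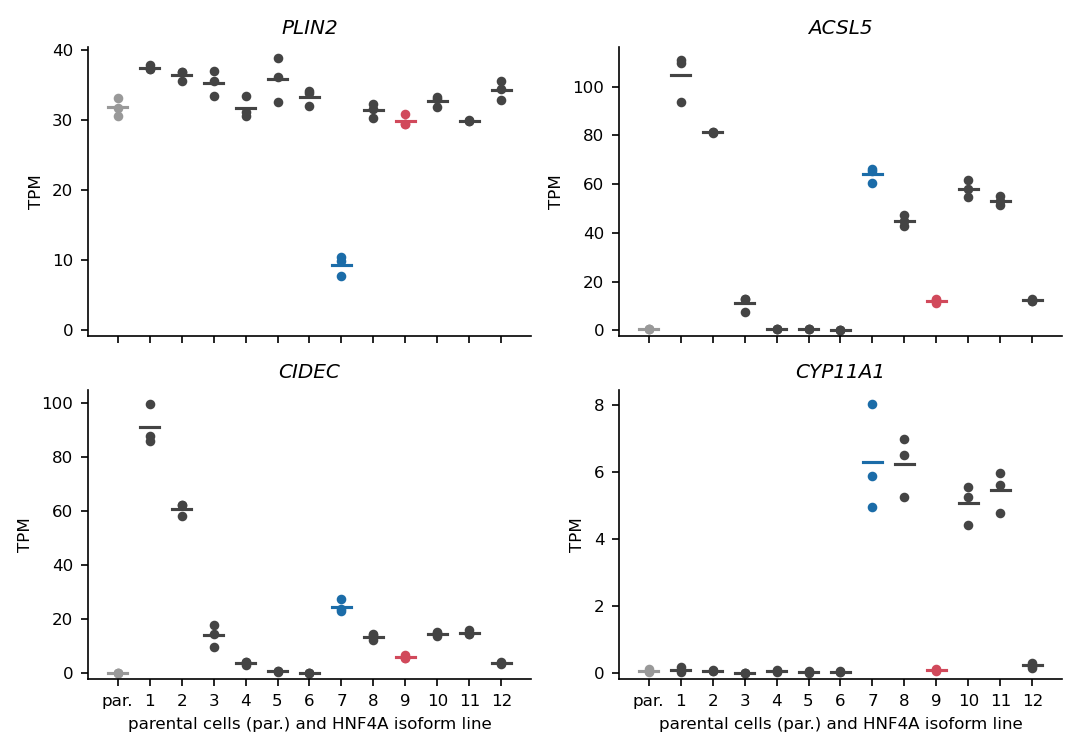
TPM (vertical axes) of PLIN2, ACSL5, CIDEC and CYP11A1 in each library of the parental cells and of the 12 HNF4A isoform lines (horizontal axis), with group means as bars; isoform 7 is blue and isoform 9 red. PLIN2 is low in isoform 7 alone, ACSL5 and CIDEC are lower in isoforms 3, 9 and 12 than in isoforms 1, 7 and 10, and CYP11A1 is at 4.43 TPM or more in every library of isoforms 7, 8, 10 and 11.

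Among 22 genes listed for fatty acid activation and lipid droplets, 15 were tested, 3 called (0.42% of all tested genes were) and 4 passed at any size (15.4% of all), with a median log2 difference of 0.026 beside 0.058 for all tested genes. ACSL1, another long-chain acyl-CoA synthetase, rose by 0.47 (limma adjusted p = 6.3e-07), from 10.5 to 14.9 TPM. The remaining 11 did not pass, among them ACSL3 (58.5 and 63.4 TPM in isoforms 7 and 9), PLIN3 (134.9 and 125.6 TPM) and DGAT1 (37.5 and 36.9 TPM). After scaling, PLIN3 passed as lower (-0.16, limma adjusted p = 0.0119), but with only the 6 libraries it did not (limma adjusted p = 0.414). In the list for fatty acid oxidation, no gene of 16 tested reached the size threshold. ACAA2, the thiolase of mitochondrial beta oxidation, had the widest gap there, with 101.3 to 110.3 TPM in isoform 7 and 60.3 to 72.2 TPM in isoform 9 (log2 difference -0.67 ± 0.063, limma adjusted p = 3.72e-09). In cholesterol synthesis, of 16 tested genes only PMVK passed, by 0.15, and after scaling it no longer did (limma adjusted p = 0.0788), whereas MVK and NSDHL then passed as lower (-0.15 and -0.14, limma adjusted p = 0.0109 and 0.0254); none of the 3 passed with only the 6 libraries.

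CYP11A1, HPD and NAT2, enzymes of different pathways, were among the called lower genes with the largest differences. CYP11A1, the cholesterol side-chain cleavage enzyme that starts steroid synthesis (chr15:74337759-74367740, minus strand), was at 8.05, 4.98 and 5.90 TPM in isoform 7 and at 0.0769, 0.130 and 0.0871 TPM in isoform 9. The isoform 9 libraries lay within the parental range of 0.0495 to 0.124 TPM apart from the highest, and the log2 difference of -2.71 ± 0.10 (SE, limma adjusted p = 1.33e-17) was the widest among the called lower genes. HPD, 4-hydroxyphenylpyruvate dioxygenase of tyrosine breakdown (chr12:121839527-121863596, minus strand), was at 25.8, 23.4 and 25.4 TPM in isoform 7 and at 3.06, 3.64 and 4.32 TPM in isoform 9. The lines did not overlap, at a log2 difference of -2.48 ± 0.11 (limma adjusted p = 1.74e-16). In isoform 7, HPD was higher than in any other group, the next being isoform 8 at 12.1 TPM. NAT2, an arylamine N-acetyltransferase of drug metabolism, went from 7.68 TPM ± 0.830 to 1.82 TPM ± 0.565, the latter beside 1.49 TPM in the parental cells.

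Further called lower enzymes, chosen for mention after their values were seen, were CYP1A1 (17.8 to 6.06 TPM) and CYP1A2 (2.89 to 0.755 TPM), both P450 enzymes of xenobiotic metabolism. HMOX1, which degrades haem, went from 60.0 to 26.9 TPM (log2 difference -1.13 ± 0.087, limma adjusted p = 7.77e-11). BAAT, which conjugates bile acids to amino acids, went from 3.60 to 0.787 TPM. PIPOX, peroxisomal pipecolic acid oxidase, went from 6.36 to 1.41 TPM, and APOBEC1, the apolipoprotein B mRNA editing enzyme, from 16.2 to 4.96 TPM. CREB3L3, a membrane-bound transcription factor of liver and gut, went from 3.65 to 0.524 TPM. These genes were named because they were called lower. The 17 genes of the drug metabolism list held 4 tested members, with no call, 2 higher at any size (background 10.8%), none lower and a median log2 difference of 0.29.

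Promoter windows of the called genes were searched for short words of the HNF4 recognition site, because the lines differ in an HNF4A isoform. The words were CAAAGTCCA and CAAAGGTCA, matched exactly on both strands in RefSeq windows (GRCh38.p14) of 300 bases around the annotated start. Of the 51 called lower genes, 33 had a window, and CAAAGTCCA was found in 2 of them (6.06%), APOBEC1 and PIPOX, against 0.259% of 10422 tested genes and 0.359% of all 27305 windows. CAAAGGTCA was found in 1 of the 33 (3.03%), VTN, against 0.269% of tested genes and 0.41% of all windows. No window held both words, and none of the 4 windows of called higher genes held either. The 3 windows with a match are shown because they are the only called genes with either word, and were chosen after the values were seen; capitals mark the match, which in VTN and PIPOX is on the strand opposite to the printed one. VTN is at chr17:28370258-28370557 (minus strand), PIPOX at chr17:29042891-29043190 (plus strand) and APOBEC1 at chr12:7665859-7666158 (minus strand), each printed 5′ to 3′ in the direction of the gene. A match describes these letters and not a bound site.
VTN: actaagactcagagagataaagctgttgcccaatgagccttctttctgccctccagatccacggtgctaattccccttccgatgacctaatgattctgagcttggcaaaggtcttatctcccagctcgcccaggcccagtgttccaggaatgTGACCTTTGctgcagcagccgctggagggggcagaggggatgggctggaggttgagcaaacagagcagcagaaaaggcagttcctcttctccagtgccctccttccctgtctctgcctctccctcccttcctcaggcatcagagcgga
PIPOX: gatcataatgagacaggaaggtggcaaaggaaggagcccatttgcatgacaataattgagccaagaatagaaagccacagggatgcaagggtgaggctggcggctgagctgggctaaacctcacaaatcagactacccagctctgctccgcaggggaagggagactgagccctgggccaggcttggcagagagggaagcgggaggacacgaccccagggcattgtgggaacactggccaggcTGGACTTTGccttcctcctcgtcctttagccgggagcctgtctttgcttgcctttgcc
APOBEC1: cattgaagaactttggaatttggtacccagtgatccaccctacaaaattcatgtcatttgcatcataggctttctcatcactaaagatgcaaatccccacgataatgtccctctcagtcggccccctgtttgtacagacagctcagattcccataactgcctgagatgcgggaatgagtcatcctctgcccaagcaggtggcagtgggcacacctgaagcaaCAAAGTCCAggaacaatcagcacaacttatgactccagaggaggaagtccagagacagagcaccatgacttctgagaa

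The match in APOBEC1 starts 28 bases before the annotated start, that in PIPOX 8 bases before it and that in VTN 98 bases before it. VTN, which encodes the plasma and matrix protein vitronectin, was at 3.51, 2.81 and 3.96 TPM in isoform 7 and at 0.235, 0.176 and 0.315 TPM in isoform 9. The lines did not overlap (log2 difference -1.83 ± 0.13, limma adjusted p = 4.8e-12). APOBEC1 was at 17.8, 16.3 and 14.6 TPM in isoform 7 and at 4.77, 4.77 and 5.34 TPM in isoform 9, with 0.0403 TPM in the parental cells. PIPOX was at 6.43, 5.93 and 6.72 TPM against 1.09, 1.18 and 1.97 TPM. All 3 genes were taken from those called lower, so their lower values in isoform 9 follow from that choice.

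At the cell surface and among secreted or calcium-binding proteins, ANPEP, IL32, SEMA7A and S100A14 were lower in isoform 9. ANPEP, aminopeptidase N of the intestinal brush border (chr15:89784889-89815401, minus strand), was at 8.76, 8.01 and 8.62 TPM in isoform 7 and at 0.473, 0.660 and 0.838 TPM in isoform 9 (log2 difference -2.52 ± 0.10, SE, limma adjusted p = 2.09e-17). It was the only called gene of 9 tested brush border genes. EZR (616.8 to 494.2 TPM) and SLC9A3R1 (159.6 to 108.2 TPM), which link membrane proteins to actin, also fell by 0.32 and 0.56 (limma adjusted p = 5.09e-07 and 1.06e-05). PLS1, an actin bundler of microvilli, rose by 0.24 (limma adjusted p = 0.03), short of the size threshold. It no longer passed after scaling (limma adjusted p = 0.0504) or with only the 6 libraries (0.248). The list's median log2 difference was -0.0096.

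IL32, a cytokine of epithelial and immune cells (chr16:3065297-3082192, plus strand), was at 45.6, 42.1 and 40.3 TPM in isoform 7 and at 10.5, 10.3 and 10.1 TPM in isoform 9, with 0.424 TPM in the parental cells. The log2 difference was -1.95 ± 0.15 (limma adjusted p = 1.24e-10). It was the only called gene of 8 tested genes in the NF-kB and chemokine list, whose median log2 difference was 0.011. S100A14, a calcium-binding protein of epithelia, was the most abundant of the called genes in isoform 7. It was at 298.1, 325.3 and 288.9 TPM there and at 88.4, 93.1 and 95.2 TPM in isoform 9 (log2 difference -1.71 ± 0.11, limma adjusted p = 1.16e-12), above the parental 16.6 TPM. SEMA7A, a membrane-anchored semaphorin, was at 20.7, 17.0 and 18.2 TPM against 5.13, 4.81 and 3.59 TPM, and the parental mean of 3.69 TPM lay inside the isoform 9 range. FER1L4, a transcribed pseudogene, went from 14.4 TPM ± 3.27 to 3.66 TPM ± 0.994.

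**Figure D3:**
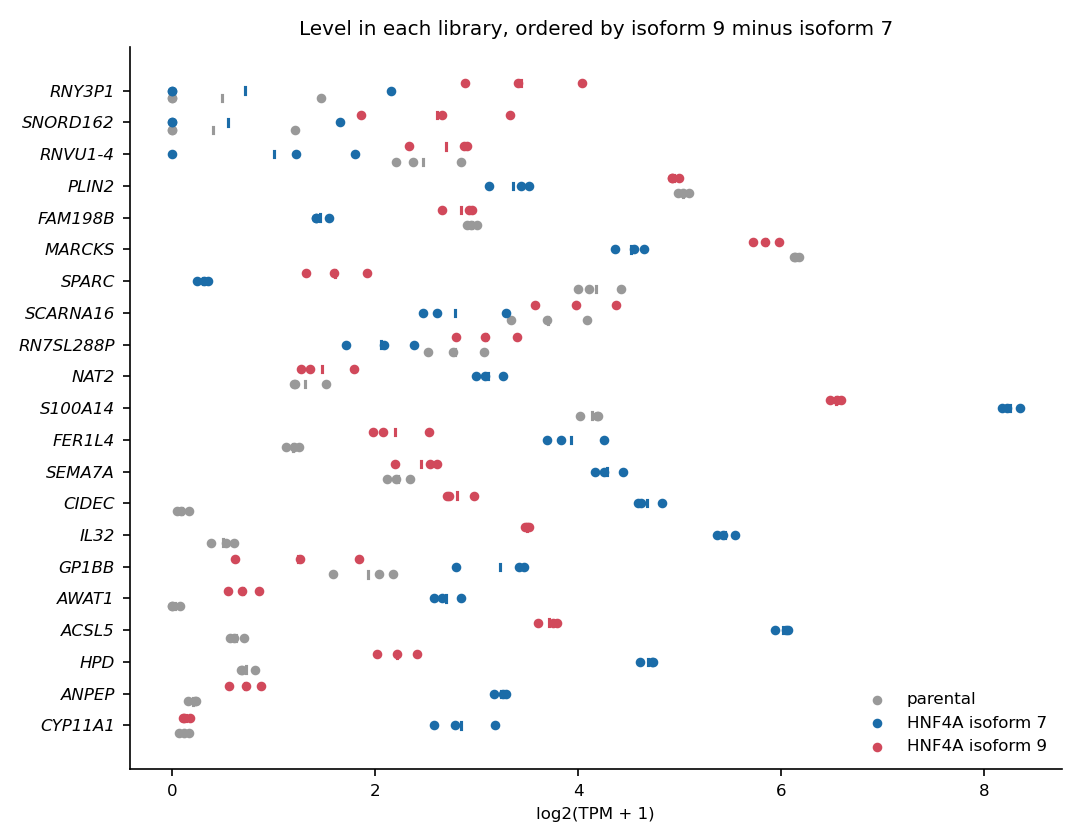
Level of the named called genes (vertical axis) in each library as log2(TPM + 1) (horizontal axis), with a tick at the group mean. Parental libraries are grey, isoform 7 blue and isoform 9 red; genes are ordered by the difference, and RNY3P1, SNORD162 and RNVU1-4 include libraries at 0 in isoform 7.

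Several called lower genes were neighbours in the genome, a pattern noticed after the calls were made. Of 44 called lower genes with a GENCODE v29 position, 14 (31.8%) had another within 500 kb, against 3.93% of the other tested genes. On chr15, CYP11A1, SEMA7A, CYP1A1 and CYP1A2 lay within 418 kb (chr15:74337759-74756202). The 5 other tested genes between them, UBL7, UBL7-AS1, ARID3B, CLK3 and EDC3, had log2 differences of only -0.10 to -0.057 and none passed the test. On chr1, S100A3, S100A14 and S100A1 lay within 84.7 kb (chr1:153547329-153632039). There 3 of the 4 other tested members of the S100 cluster also passed at smaller size, S100A4 by -0.95, S100A13 by -0.90 and S100A2 by -0.26 (limma adjusted p = 6.69e-08, 2.38e-14 and 0.00725), and S100A16 did not, at -0.11. In the annotation S100A4 spans S100A3, and S100A13 overlaps S100A1, so reads may have been divided between the rows of each overlap. S100A1 was close to the size threshold, and its log2 difference of -1.01 fell short of it without isoform 7 replicate 2 (-0.998), isoform 7 replicate 3 (-0.94) or isoform 9 replicate 3 (-0.88). On chr22 the called rows SEPT5, SEPT5-GP1BB and GP1BB overlap within 10.3 kb, so reads of 1 locus may have been divided among them. They are not separate observations, although all 3 are counted in the 14. The remaining neighbours were FER1L4 with SPAG4 on chr20 and C11orf86 with CLCF1 on chr11. Of 8 other tested genes in the chr11 span, 4 passed as lower at smaller size.

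Among the called higher genes, MARCKS and FAM198B were close to parental levels in isoform 9. MARCKS, a membrane-bound substrate of protein kinase C that binds actin (chr6:113857362-113863471, plus strand), was at 24.03, 22.5 and 19.7 TPM in isoform 7 and at 51.7, 56.5 and 62.2 TPM in isoform 9 (log2 difference 1.33 ± 0.072, SE, limma adjusted p = 2.38e-14), beside 69.9 TPM in the parental cells. FAM198B, a Golgi membrane protein (chr4:158124474-158173318, minus strand), was at 1.67, 1.93 and 1.68 TPM against 5.34, 6.62 and 6.75 TPM, beside 6.75 TPM in the parental cells. IL7, the lymphoid growth factor interleukin 7 and chosen after its values were seen, was at 1.09 TPM ± 0.128 and 3.78 TPM ± 0.861. The authors' deposited tables, whose 2 comparisons share the parental libraries, listed log2 fold changes against parental cells of -1.52 for MARCKS in isoform 7 and -0.27 in isoform 9.

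SPARC, a matricellular glycoprotein that modulates cell adhesion, was the only called gene of 11 tested in the mesenchymal and matricellular list. It was at 0.279, 0.188 and 0.243 TPM in isoform 7 and at 1.49, 2.02 and 2.78 TPM in isoform 9, both far below the parental 17.2 TPM ± 2.84 (SD, n = 3). The log2 difference was 1.31 ± 0.34 (limma adjusted p = 0.00757). The call was lost without isoform 9 replicate 3, at 1.15 (limma adjusted p = 0.0544). Elsewhere in that list CTGF, a secreted matrix-associated factor, was at 16.9 to 19.2 TPM in isoform 7 and 8.48 to 10.6 TPM in isoform 9, and fell by 0.86 (limma adjusted p = 0.000101). In all, 2 genes of the list rose and 3 fell at any size, at a median log2 difference of -0.094. COL6A2, a collagen VI chain named after its values were seen, went from 110.8 to 54.4 TPM. Its log2 difference of -1.01 became -0.97 without isoform 7 replicate 3 and also without isoform 9 replicate 1, below the size threshold.

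Of the 8 genes that the rule named as higher, 5 were short RNAs of low level, in libraries made from poly(A)-enriched RNA. RNY3P1 was at 3.45, 0 and 0 TPM in isoform 7 and at 15.4, 9.62 and 6.38 TPM in isoform 9. SNORD162 was at 2.14, 0 and 0 TPM and at 9.03, 5.33 and 2.63 TPM. RNVU1-4 and RN7SL288P, which have near-identical copies, had means of 1.28 and 3.25 TPM in isoform 7 and 5.62 and 7.66 TPM in isoform 9. SCARNA16 had means of 6.15 and 15.2 TPM in isoforms 7 and 9. For these genes, limma adjusted p was between 0.0038 and 0.0484, and every one of the 5 was lost in at least 1 fit that left out a library, with the largest adjusted p at 0.144 for RNY3P1 without isoform 7 replicate 2, 0.0724 for SNORD162 without isoform 7 replicate 2, 0.0582 for RNVU1-4 without isoform 7 replicate 1, 0.139 for SCARNA16 without isoform 9 replicate 3 and 0.125 for RN7SL288P without isoform 7 replicate 2. Without short RNAs and unmatched names, 53 genes were called, 6 higher and 47 lower.

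Among 18 gene lists of 286 genes in all, 195 genes were tested and 6 called: PLIN2 and SPARC higher, and ACSL5, CIDEC, ANPEP and IL32 lower. The other 57 called genes belonged to no list. The canonical HNF4A targets of liver and gut were mostly too low to test. Of 21, 5 passed the level filter and none was called, with a median log2 difference of -0.14. LGALS4, a galectin of the gut epithelium, had 1.44 and 0.727 TPM in isoforms 7 and 9 and fell by 0.51 (limma adjusted p = 0.0395, or 0.0995 with only the 6 libraries). VIL1, the actin regulator villin, had 3.81 and 2.83 TPM and did not pass (limma adjusted p = 0.176), and APOA4, APOB, APOH, TTR and FABP1 had means of 0.0320 TPM or less in both lines.

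Transcription factors of gut and liver shifted modestly in both directions, with 17 tested, 4 higher, 4 lower and none called. KLF4, a zinc finger factor of epithelial differentiation, was at 30.1, 31.1 and 29.4 TPM in isoform 7 and at 18.5, 21.6 and 20.8 TPM in isoform 9 (log2 difference -0.55 ± 0.068, limma adjusted p = 6.5e-07). The orphan nuclear receptors split: NR2F2 fell by 0.49 and NR2F6 by 0.33, whereas NR2F1 rose by 0.62 and NR5A2, the liver receptor homologue, by 0.45. NR2F1 was at 7.86 to 8.29 TPM in isoform 7 and 11.2 to 17.5 TPM in isoform 9. HNF4G, the paralogue of HNF4A, was at 1.95, 2.52 and 2.49 TPM in isoform 7 and at 3.13, 4.00 and 4.02 TPM in isoform 9 (log2 difference 0.50, limma adjusted p = 0.000175). With only the 6 libraries in the fit, HNF4G (limma adjusted p = 0.0955) and NR2F1 (0.093) no longer passed, and KLF4, NR2F2, NR2F6 and NR5A2 still did (limma adjusted p between 0.00864 and 0.0239).

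Interferon-response genes included IFI6, a mitochondrial interferon-induced protein, at 8.30, 8.49 and 7.51 TPM in isoform 7 and 13.8, 13.8 and 16.6 TPM in isoform 9. It rose by 0.79 (limma adjusted p = 3.19e-05) but stayed below the parental 27.5 TPM. OAS3 and IFIT1 also passed (0.40 and 0.33) but not with only the 6 libraries (limma adjusted p = 0.0506 and 0.277), and the list of 12 tested genes had a median log2 difference of 0.091. In the p53 list of 14 tested genes, CDKN1A, an inhibitor of cyclin-dependent kinases, fell by 0.44 (limma adjusted p = 0.000446) and GDF15, a stress-induced cytokine, rose by 0.36 (limma adjusted p = 0.00534). With only the 6 libraries in the fit neither passed, at limma adjusted p = 0.0817 and 0.0935.

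DNA replication genes had a median log2 difference of 0.20, and 8 of 16 passed, all higher in isoform 9, where 10.8% of all tested genes were higher, with TYMS (0.31) and MCM2 (0.29) in front. This shift depended on the processing: 3 of the 16 passed after median-of-ratios scaling and 0 with only the 6 libraries in the fit. Mitosis genes had a median of 0.16, with 3 of 16 higher, 2 after scaling and 1 with only the 6 libraries. In the serine and amino acid stress list of 14 tested, ATF3 and TRIB3, which are induced by stress, fell by 0.47 and 0.31 and PHGDH, the entry enzyme of serine synthesis, rose by 0.38. The 8 tested Wnt targets had 1 higher (EPHB2, 0.29) and 1 lower (TCF7, -0.13), neither with only the 6 libraries (limma adjusted p = 0.149 and 0.32). The 10 coregulators had 1 higher (NCOA1, 0.32; adjusted p = 0.213 with the 6 libraries) at a median of 0.16, and none of 4 metallothioneins passed, at a median of 0.030. Of the enterocyte transporters 1 of 15 was tested, SLC11A2, which rose by 0.19 and did not pass with the 6 libraries (limma adjusted p = 0.174).

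**Figure D4:**
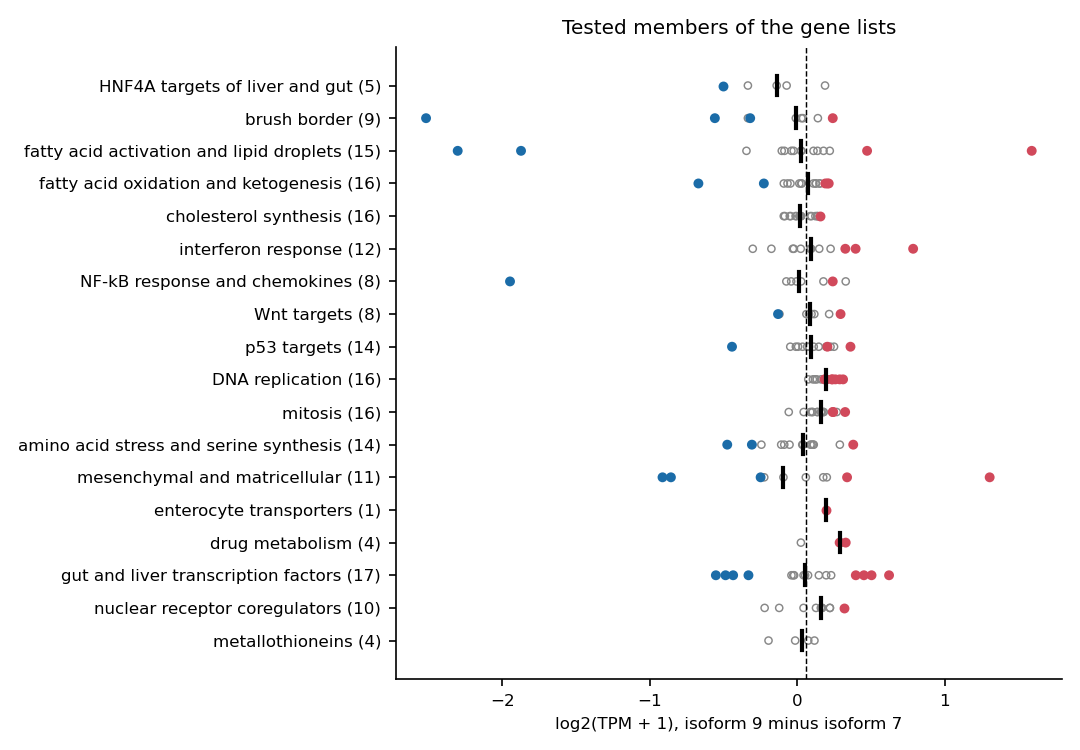
Log2 difference, isoform 9 minus isoform 7 (horizontal axis), for the tested members of each gene list (vertical axis, number tested in brackets); filled points passed an adjusted p of 0.05 (red higher, blue lower), open points did not. Black bars are list medians and the dashed line is the median of all tested genes, 0.058; ACSL5, CIDEC, ANPEP, IL32, PLIN2 and SPARC stand outside the range of -1 to 1.

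The short and long C-terminus also differ in 3 other pairs of the series: isoforms 12 and 10, 3 and 1, and 6 and 4, none of which shares a library with isoforms 9 and 7. Of the 51 genes called lower in isoform 9, 46 were lower at any size in isoform 12 than in isoform 10, against 7.83% of all tested genes, and 33 were called (0.42% of all tested). In isoform 3 against isoform 1, 39 were lower (background 13.8%) and 32 called (background 1.17%). In isoform 6 against isoform 4, which carry a different N-terminal exon, 13 were lower (background 3.67%) and 4 called (background 0.187%): CIDEC, S100A14, NAT2 and C11orf86. In that pair 3 of the 51 passed in the opposite direction, LOC107987294 (1.75, called), CDKN2B (0.48) and SP6 (0.30), and LOC107987294 did so in 3 against 1 as well (0.96). The median log2 difference of the 51 was -1.24, -1.45 and -0.13 in these pairs, beside -1.44 in isoform 9 against 7, while the medians of all tested genes were 0.016, 0.059 and 0.021.

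In total 13 of the 51 were lower at any size in all 3 other pairs, among them ACSL5, CIDEC, IL32, S100A14, NAT2, PIPOX and CREB3L3. From isoform 10 to isoform 12, ACSL5 went from 58.1 to 12.2 TPM, HPD from 10.9 to 0.985 TPM and IL32 from 73.4 to 8.89 TPM. In isoforms 4 and 6, ACSL5 had 0.603 and 0.257 TPM, a log2 difference of -0.35 (limma adjusted p = 0.0338), and ANPEP 0.184 and 0.0686 TPM. Both genes were below 1 TPM there, where this scale understates ratios and holds differences small. The median of the 51 in that pair includes such genes. Isoform 3 replicate 1 had 406.9 TPM of HNF4A beside 833.5 and 771.8 TPM in the other libraries of its line, and values of isoform 3 include it.

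**Figure D5:**
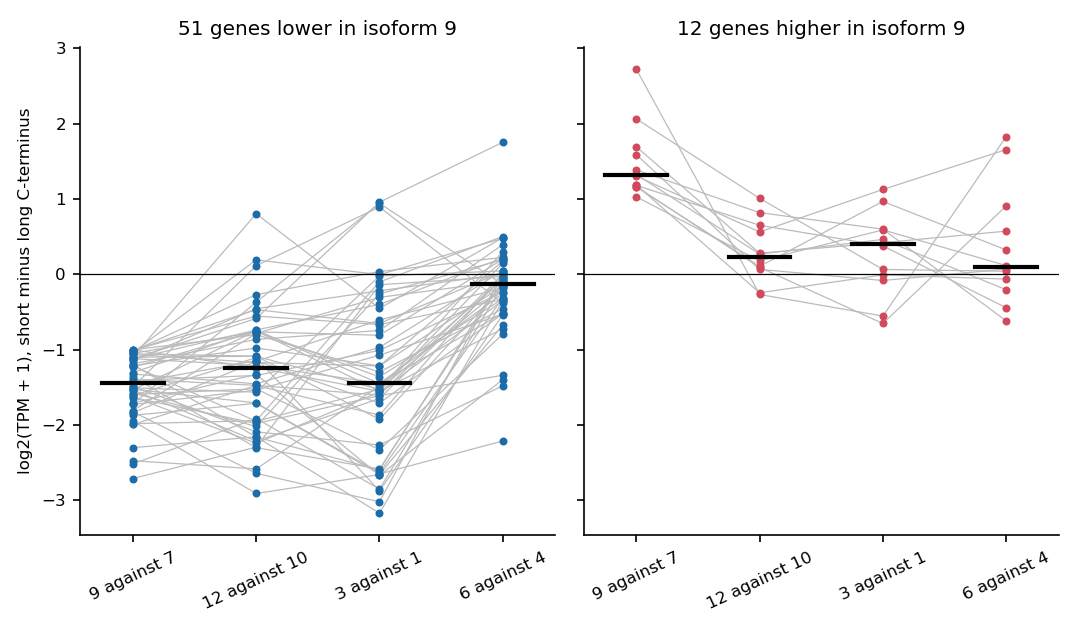
Log2 difference of the short against the long C-terminus (vertical axis) in 4 pairs of isoforms (horizontal axis) for the 51 genes lower (left) and the 12 higher (right) in isoform 9 than in isoform 7; grey lines join a gene and black bars are medians. The choice of genes fixes the first position of each panel; the lower genes have medians of -1.24 in 12 against 10 and -1.45 in 3 against 1, and -0.13 in 6 against 4.

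The 12 called higher genes were followed through the same pairs. At any size 3 were higher in isoform 12 than in 10 (background 9.97%), 5 in isoform 3 than in 1 (27.3%) and 1 in isoform 6 than in 4 (8.14%), and none in all 3. FAM198B, SPARC, MARCKS and IL7 were higher in 2 of the 3 other pairs. In 6 against 4, FAM198B (-0.62, limma adjusted p = 1.39e-05) and IL7 (-0.44, limma adjusted p = 0.0377) passed in the opposite direction.

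Differences between pairs were tested directly in the same fit. The difference between isoforms 9 and 7 departed from that between isoforms 12 and 10 in 31 genes (0.207% of tested), from that between 3 and 1 in 91 genes (0.607%) and from that between 6 and 4 in 117 genes (0.78%). The first count rose to 48 without isoform 9 replicate 1. Of the 51 called lower genes, 1 departed downwards from 12 against 10, namely CDKN2B (0.1% of all tested genes did), 10 from 3 against 1 (0.213%) and 33 from 6 against 4 (0.507%). A further 5, BAAT, SLCO2B1, APOBEC1, VTN and CREB3L3, departed upwards from 3 against 1, by 1.11 to 1.40; their differences in that pair were wider than in isoform 9 against 7. The 51 genes were chosen for a low value in isoform 9 against 7, and the same difference enters every departure, so the choice favours downward departures and nothing is read from these counts. All 3 comparisons use the libraries of isoforms 7 and 9.

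PLIN2 departed from all 3 pairs. Its log2 difference was 0.065 in isoform 12 against 10, -0.082 in 3 against 1 and 0.069 in 6 against 4, and the departures were 1.53, 1.67 and 1.52 (SE 0.091 each, limma adjusted p = 2.25e-12, 1.88e-13 and 5.14e-13). CDKN2B, an inhibitor of cyclin-dependent kinases and named after its values were seen, also departed from all 3, by -1.23, -1.04 and -1.52 in the same order (limma adjusted p = 2.27e-05, 7.47e-05 and 9.4e-08). It was at 10.99, 12.85 and 14.03 TPM in isoform 7 and at 4.50, 5.29 and 7.31 TPM in isoform 9, and its log2 difference of -1.04 became -0.97 without isoform 7 replicate 3 and -0.91 without isoform 9 replicate 1, short of the size threshold. CYP11A1 departed from 3 against 1 (-2.57 ± 0.15, limma adjusted p = 4.06e-13) and from 6 against 4 (-2.68 ± 0.15), where it was at 0.187 TPM or less in every library of all 4 lines. Its difference in isoform 12 against 10 was -2.30, from 5.09 to 0.237 TPM. CYP11A1 was thus at 4.43 TPM or more in every library of isoforms 7, 8, 10 and 11, the P2 forms with a long C-terminus, and was at most 0.306 TPM in any other library.

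ARL14EPL and the neighbouring rows OR51B5, HBE1 and OR51B4 were among the largest departures. In isoforms 7 and 9 the 3 neighbouring rows were below 1 TPM, where this scale understates ratios. HBE1, the embryonic beta-like globin, was at 0.884, 0.899 and 0.946 TPM in isoform 7 and 0.289, 0.262 and 0.263 TPM in isoform 9, while isoform 12 had 16.4 TPM and isoform 10 1.73 TPM. The departure from that pair was -3.26 ± 0.26 (SE, limma adjusted p = 8.29e-10). OR51B5, an olfactory receptor gene of the same locus, was at 0.805, 0.857 and 0.417 TPM in isoform 7 and 0.0717, 0.0792 and 0 TPM in isoform 9 (log2 difference -0.68, limma adjusted p = 0.00344). It had 13.4 TPM in isoform 12 and 0.808 TPM in isoform 10, and departed by -3.67. OR51B4 had means of 0.272 and 0.0759 TPM in isoforms 7 and 9 and of 6.09 and 0.327 TPM in isoforms 12 and 10, and departed by -2.65. HBE1 and OR51B5 overlap in the annotation (both end at chr11:5505652), and OR51B4 lies inside the span of HBE1. Reads of these 3 rows therefore cannot be assigned with certainty. ARL14EPL was at 1.38 and 3.38 TPM in isoforms 7 and 9 but at 11.8 and 1.89 TPM in isoforms 1 and 3, a departure of 2.96 ± 0.29.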

How the data were processed

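Polyadenylated RNA was sequenced from 39 libraries, and the deposited tables, 1 per group, hold 45446 rows with TPM per library from the authors, per the file headers. The submitters' processing notes name Trimmomatic 0.36, FastQC 0.11.5, kallisto 0.44.0, DESeq2 1.22.2 and GRCh38.p12. The deposited tables also give, per the file headers, for each line against the parental cells, mean normalized counts (a signal), log2 fold changes, their standard errors and test statistics (scores), and raw and adjusted p-values. Those authors' columns entered no fit. TPM values do not show the depth of a library. The authors' mean normalized counts, averaged over the libraries compared, summed to 51503638 for isoform 7 against the parental cells. For isoform 9 against the parental cells they summed to 52607952. These sums are not the depth of either line.

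The 12 rows HNF4A1 to HNF4A12 were left out of the fit. Rows averaging 1 TPM or more in the 39 libraries entered limma 3.58.1 (R 4.3.3) on log2(TPM + 1), with 13 group coefficients, 26 residual degrees of freedom and a mean-variance trend. The median residual SD was 0.094. The script was tested on simulated data. Named genes were, among called genes whose lines do not overlap and reach 5 TPM, the 12 largest differences in each direction (8 existed for higher), called list genes, and the 3 largest departures per comparison of pairs at 5 TPM or more, which made 30. Departures include the short RNAs SNORA9B, SNORA5B, RNU6-333P and SNORA47 and the pseudogene RNA5SP298. The members and lists were chosen with earlier results of these data known. The libraries had 27892 to 28794 rows above 0. Alternatives varied the pseudocount, filter, scaling, libraries, trend, minimum size, block, repeated rows and each replicate. The sample titles of isoforms 4 and 5 repeat the same column label within each line, so their columns could not be matched to replicates.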

Additional observations from a re-analysis of the deposited data

Results flagged for a closer look

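The following genes differed between isoform 9 and 7 in a way that differed from another pair of short and long C-terminus, tested as a difference of log2 differences in 1 limma fit with adjusted p under 0.05 and a size of at least 1. All 3 comparisons reuse the libraries of isoforms 7 and 9, so they are not independent.

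PLIN2 had departures of 1.67 from 3 against 1, 1.52 from 6 against 4 and 1.53 from 12 against 10. MARCKS departed by 1.53 from 6 against 4 and by 1.06 from 12 against 10, and FAM198B by 2.01 from 6 against 4, a pair in which its own log2 difference was -0.62 (limma adjusted p = 1.39e-05).

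CYP11A1 departed by -2.57 from 3 against 1 and by -2.68 from 6 against 4. GP1BB, which overlaps SEPT5 and SEPT5-GP1BB, departed by -1.88 and -2.49, and SEMA7A by -1.23 and -1.66, from the same pairs. From 6 against 4 only among these named departures, ANPEP was at -2.37, HPD at -2.41, ACSL5 at -1.95, AWAT1 at -2.004, IL32 at -1.27 and FER1L4 at -1.20. ANPEP and ACSL5 had means below 1 TPM in isoforms 4 and 6, where this scale understates ratios. The same holds for CYP11A1, which was below 1 TPM in isoforms 1, 3, 4 and 6. A departure from such a pair therefore does not show that the ratio of these genes was unchanged in it.

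ARL14EPL departed by 2.96 from 3 against 1, by 1.25 from 6 against 4 and by -1.29 from 12 against 10. Its own log2 difference in those pairs was -2.11, -0.40 and 2.15, beside 0.85 in isoform 9 against 7. OR51B5 departed by -1.01, 3.13 and -3.67 in the same order, HBE1 by -1.55, 3.25 and -3.26, and OR51B4 by 2.77 from 6 against 4 and -2.65 from 12 against 10. In isoform 4, HBE1 was at 43.8 TPM and OR51B5 at 31.3 TPM, against 7.68 and 4.03 TPM in the parental cells.

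The rest are short RNAs whose libraries scatter widely. SNORA9B departed by -3.34 and SNORA5B by -3.28 from 3 against 1. RNU6-333P departed by 4.25, SNORA47 by 4.24 and RNA5SP298 by 3.29 from 6 against 4. None of these 5 passed in isoform 9 against 7 itself (limma adjusted p between 0.204 and 0.467).

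Genes outside the naming rule that the text mentions were treated alike. CDKN2B departed by -1.04 from 3 against 1, -1.52 from 6 against 4 and -1.23 from 12 against 10. In the order 3 against 1 and 6 against 4, the departures were 1.221 and -1.28 for BAAT, 1.40 and -1.16 for SLCO2B1, 1.11 and -1.22 for APOBEC1, 1.20 and -1.83 for VTN and 1.27 and -1.07 for CREB3L3. These 5 departed upwards from the first pair and downwards from the second. Both departures were negative for SEPT5 (-1.49 and -1.55), SEPT5-GP1BB (-1.32 and -1.77) and LOC107987294 (-2.08 and -2.88). From 6 against 4 alone, IL7 departed by 1.63, CYP1A1 by -1.17, CYP1A2 by -1.15, PIPOX by -1.28, SP6 by -1.36 and COL6A2 by -1.05.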

How the results depend on the processing

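The count of 63 called genes in isoform 9 against 7 became 133 with a pseudocount of 0.1 TPM (40 higher and 93 lower, so 30.1% higher in place of 19%), 35 at a minimum mean of 5 TPM and 2317 with no minimum size. The 91 departures from 3 against 1 became 42 at 5 TPM and 2258 with no minimum size. The 117 departures from 6 against 4 became 209 with the smaller pseudocount, 61 at 5 TPM and 1656 with no minimum size. The 31 departures from 12 against 10 became 47, 13 and 406 under these settings. Leaving out each library of isoforms 7 and 9 gave 60 to 82 called genes, and 68 to 116, 117 to 138 and 27 to 48 departures; the 48 came without isoform 9 replicate 1. The causes were not tested. Without isoform 3 replicate 1, chosen after seeing the data, 66 genes departed from 3 against 1. Of the 63 genes, 41 stayed called under every setting that gave a value, 42 in every fit without 1 library, and 0 reversed. The HNF4A log2 difference was 0.28 to 0.48 without 1 library and 0.31 after scaling. Same-numbered libraries of isoforms 7 and 9 had correlations of deviations of 0.076, 0.18 and 0.022, so the number was not taken as a pairing. A replicate block with only the libraries compared gave 59 called genes (56 shared), 94 departures from 3 against 1 and 31 from 12 against 10; none could be fitted for 6 against 4. Depth per library being unknown, genes near 1 TPM carry an unknown counting error.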

Other observations

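In isoform 8, the P2 form with an insertion in the long C-terminus, CYP11A1 (6.26 TPM), ANPEP (6.87 TPM) and IL32 (41.6 TPM) were near the isoform 7 means of 6.31, 8.46 and 42.7 TPM. MARCKS at 57.5 TPM and PLIN2 at 31.4 TPM in isoform 8 were near the isoform 9 means of 56.8 and 29.9 TPM. These levels were chosen after they were seen, and the differences between isoforms 8, 7 and 9 were not tested.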
